A study of Saccharomyces cerevisiae and Saccharomyces paradoxus and Saccharomyces cerevisiae x Saccharomyces paradoxus with 12 samples.

Results

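The Hsp70 and Hsp110 chaperones were described across 2 yeast species and their hybrid. The 10 genes were chosen by name, for the family they belong to and not for a measured value: SSA1, SSA2, SSA3 and SSA4, SSB1 and SSB2, SSZ1, SSE1 and SSE2, and SSC1. They are 10 of the 5226 genes in the count table, and all 10 passed the filter on low counts. RNA-seq, which measures mRNA abundance, and Ribo-seq, which counts the mRNA pieces covered by ribosomes (here called occupancy), were made from 3 diploid strains: GSY83, which is Saccharomyces cerevisiae, GSY82, which is S. paradoxus, and GSY88, the F1 hybrid of the species. Each strain gave 2 libraries per assay, all from cultures in rich glucose medium (YEP+D) at 30 °C, taken at an optical density of 0.6 to 0.9 and treated with cycloheximide, which stalls ribosomes, shortly before extraction. No strain received a heat shock or other stress per the labels, and each species was represented by 1 strain. A hybrid library gave 2 columns of counts, one for each species' allele, so that the 12 libraries filled 16 columns.

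Hsp70 proteins bind short hydrophobic stretches of unfolded or newly made proteins and release them through a cycle of ATP binding and hydrolysis. J proteins start the hydrolysis step, and nucleotide exchange factors, of which the Hsp110 proteins are one kind, restart the cycle by releasing ADP. In yeast the Ssa proteins serve the cytosol and nucleus, the Ssb proteins sit at the ribosome with the complex of Ssz1 and the J protein Zuo1, and Ssc1 works in the mitochondrial matrix. SSA1 and SSA2 are expressed in growing cells, whereas SSA3, SSA4 and SSE2 are known as stress-induced genes controlled by heat shock factor and the general stress factors.

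Depth was 6116133 to 8910405 counts per column, and replicate columns of a group correlated at 0.950 to 0.993 across genes on the log2 scale. The labels do not say whether replicates came from separate cultures, so p-values measure only the spread between these libraries. Levels are CPM, the counts of a gene scaled to a common total by edgeR's TMM method. They are shares of a library, so a change in a gene cannot be told from an opposite change in the rest of the library. Amounts per cell were not measured. Differences are log2 ratios from the quasi-likelihood test of edgeR, with p-values adjusted by Benjamini and Hochberg's method over all 5158 genes tested, called at an adjusted p under 0.05. Because the cells are labelled diploid, 7 haploid-specific genes in the table were summed as a check, and they made up 57.7 to 114 CPM in the RNA-seq columns, highest in the S. cerevisiae parent, with none of the 7 at 0 in any column. Their part in the results was not tested.

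The family made up a small part of the mRNA and a larger part of the ribosome footprints. The 10 genes held 0.844% and 0.851% of the RNA-seq counts of the S. cerevisiae parent, 1.30% and 1.38% of those of the S. paradoxus parent, and 1.41% to 1.60% of those of either allele in the hybrid. The S. cerevisiae parent was therefore the lowest of the groups in RNA-seq. In Ribo-seq the same genes held 2.31% to 2.80% of the counts, and the 2 S. paradoxus parent libraries spanned the values of all the other groups. Per kilobase of coding sequence in the S. cerevisiae parent, mRNA was most abundant for SSB1 at 888 CPM per kb and SSB2 at 810, which ranked 174th and 180th of 5158 genes, while SSA3 at 29.2 and SSE2 at 27.2 were the lowest members and below the median of 54.8 over all genes. Occupancy per kilobase in that parent was led by SSA2 at 3442 CPM per kb, and SSA3 at 0.557 ranked 5054th. Abundance thus spanned a wider range in occupancy than in mRNA.

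**Figure D1:**
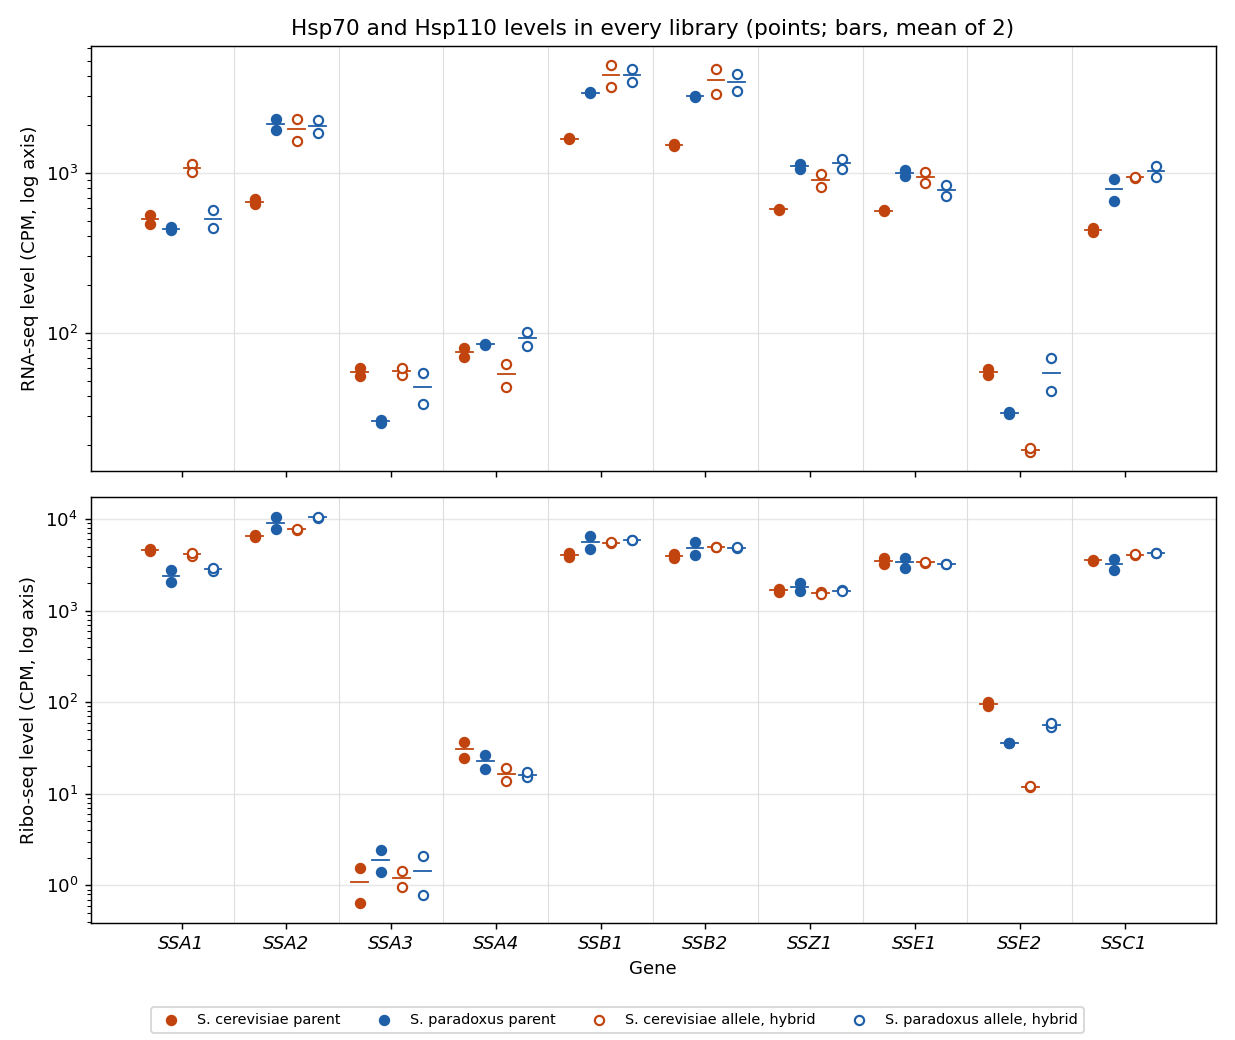
Level of each of the 10 genes in every column, in CPM on a log axis, for RNA-seq (top) and Ribo-seq (bottom); points are single libraries or alleles, bars the mean of 2. The S. cerevisiae allele of SSE2 stands lowest in both panels among the 4 groups, at 17.98 and 19.1 CPM in RNA-seq, and SSA3 lies under 2.5 CPM in all Ribo-seq columns.

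Between the parents, mRNA of most family members was lower in S. cerevisiae. Of the 10 genes, 6 were lower and 2 higher in S. cerevisiae than in S. paradoxus, against 21.6% lower and 21.9% higher among all genes tested (43.5% called in all). The median log2 ratio was −0.81 over the 10 genes and −0.003 over all genes. All 6 that were lower are abundant housekeeping members, SSA2, SSB1, SSB2, SSZ1, SSE1 and SSC1. The 2 that were higher, SSA3 and SSE2, belong to the stress-induced group. The split was not complete. SSA1, also abundant in growing cells, was at 0.20, and the stress-induced SSA4 was at −0.16. Neither was called, and each estimate lay on the other side from its group.

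Among the cytosolic genes, SSA2 (YLL024C, chromosome XII, 95566 to 97485, minus strand of the sacCer3 build) showed the largest species difference. It is a constitutive Ssa protein and nearly identical to Ssa1. Its mRNA was 636 and 684 CPM in S. cerevisiae and 2172 and 1854 CPM in S. paradoxus, with no overlap. How many of all genes had groups without overlap was not counted. A lack of overlap is not read as support for a difference, here or below. The log2 ratio was −1.61 (SE 0.19, edgeR adjusted p = 3.57e-05), which is a 3.05-fold lower level in S. cerevisiae. SSA1 (YAL005C, chromosome I, 139503 to 141431, minus strand) had 481 and 542 CPM in S. cerevisiae and 456 and 437 CPM in S. paradoxus. Although these pairs did not overlap, the log2 ratio of 0.20 (SE 0.17) did not pass the test (edgeR adjusted p = 0.376). SSA2 therefore made up 57.0% and 55.8% of the summed SSA1 and SSA2 RNA-seq counts in S. cerevisiae, but 82.7% and 80.9% in S. paradoxus. Reads of these near-identical genes could have been split between them in mapping, and with the pair summed the mRNA ratio was −1.07 (SE 0.17).

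The stress-induced cytosolic genes were much scarcer. SSA3 (YBL075C, chromosome II, 84499 to 86448, minus strand) had mRNA of 60.3 and 53.6 CPM in S. cerevisiae and 28.7 and 27.5 CPM in S. paradoxus. It was higher in S. cerevisiae by 1.02 on the log2 scale (SE 0.29, edgeR adjusted p = 0.0123), but leaving out S. cerevisiae RNA-seq replicate 1 or either S. paradoxus RNA-seq replicate raised the adjusted p to 0.0714, 0.0545 and 0.0632. SSA4 (YER103W, chromosome V, 364589 to 366517, plus strand), at 70.9 and 80.6 CPM against 85.7 and 83.4 CPM, had a ratio of −0.16 (SE 0.24, edgeR adjusted p = 0.617). Only SSA3 of the 2 therefore passed the test.

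The ribosome-bound genes formed the most even set. SSB1 (YDL229W, chromosome IV, 44065 to 45906, plus strand) and SSB2 (YNL209W, chromosome XIV, 252059 to 253900, plus strand) encode nearly identical Hsp70s that meet nascent chains. SSB1 mRNA was 1632 and 1640 CPM in S. cerevisiae and 3176 and 3156 CPM in S. paradoxus, which gave a log2 ratio of −0.95 (SE 0.18, edgeR adjusted p = 0.00113). SSB2 mRNA was 1479 and 1503 CPM against 3026 and 2987 CPM, a ratio of −1.01 (SE 0.19, edgeR adjusted p = 0.00111). In each gene the 2 libraries of a species differed far less than the species did. SSB1 made up 50.4% to 55.1% of the summed pair in all 16 columns, and reads of this pair too could have been split in mapping. The summed pair had a ratio of −0.98. SSZ1 (YHR064C, chromosome VIII, 225525 to 227141, minus strand), an atypical Hsp70 that joins Zuo1 in the ribosome-associated complex, had 587 and 592 CPM against 1053 and 1136 CPM, a ratio of −0.89 (SE 0.15, edgeR adjusted p = 0.000541).

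The Hsp110 genes moved in opposite directions. SSE1 (YPL106C, chromosome XVI, 350194 to 352275, minus strand) is the main nucleotide exchange factor for Ssa and Ssb. Its mRNA was 579 and 582 CPM in S. cerevisiae and 1036 and 950 CPM in S. paradoxus, which gave a log2 ratio of −0.77 (SE 0.16, edgeR adjusted p = 0.00196). SSE2 (YBR169C, chromosome II, 573915 to 575996, minus strand), its stress-induced paralog, had 54.3 and 59.0 CPM against 31.2 and 31.9 CPM, a ratio of 0.84 (SE 0.19, edgeR adjusted p = 0.00376). Neither gene's groups overlapped, but such separation was not counted over all genes. SSC1 (YJR045C, chromosome X, 519638 to 521602, minus strand), the Hsp70 of the mitochondrial import motor, had 449 and 428 CPM against 663 and 914 CPM, a ratio of −0.85 (SE 0.17, edgeR adjusted p = 0.00174).

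In parental ribosome occupancy fewer members were called than in mRNA. Of the 10 genes, 2 were higher in S. cerevisiae and 0 lower, against 18.0% higher and 15.0% lower over all genes (33.0% called). At an unadjusted edgeR p under 0.05, 4 members and 2218 of the 5158 genes passed. The median ratio was −0.04 over the members and 0.02 over all genes. The absence of lower calls depended on the fit. SSA2 and SSB1 were also called, both lower in S. cerevisiae, with the hybrid library as a block (edgeR adjusted p = 0.0175 and 0.0185), with DESeq2 (0.035 and 0.0354), and with edgeR without either hybrid RNA-seq library or without S. paradoxus Ribo-seq replicate 2. For the 6 genes with lower mRNA in S. cerevisiae, occupancy ratios ran from −0.47 (SE 0.18) for SSA2, with an edgeR adjusted p of 0.0634, to 0.14 (SE 0.17) for SSC1. SSA1 occupancy was 4475 and 4696 CPM in S. cerevisiae and 2765 and 2055 CPM in S. paradoxus. It was 1.90-fold higher in S. cerevisiae (log2 0.93, SE 0.17, edgeR adjusted p = 0.00125), although the summed SSA1 and SSA2 ratio was −0.05. SSE2 occupancy was 101.9 and 91.3 CPM against 35.7 and 36.1 CPM, a 2.69-fold difference (log2 1.43, SE 0.20, edgeR adjusted p = 0.000145). In both genes the parental groups were separate, but such separation was not counted over all genes.

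Translation efficiency, the occupancy ratio minus the mRNA ratio on the log2 scale, was higher in S. cerevisiae for 2 of the 10 genes, against 3.47% of all genes called in either direction 2.02% called higher and 1.45% lower. The point estimate was positive for 9 members and negative for SSA3, and their median was 0.73, beside 0.04 over all genes. SSA2 was higher by 1.14 (SE 0.26, edgeR adjusted p = 0.0307) and SSC1 by 0.99 (SE 0.24, edgeR adjusted p = 0.0435). SSE1 at 0.84 (adjusted p = 0.0619) and SSZ1 at 0.76 (adjusted p = 0.0717) lay just outside the threshold. Each call depended on the libraries in the fit. SSA2 and SSC1 were each lost in 8 of the 12 fits that left out 1 library, with adjusted p of 0.0926 to 0.157 for SSA2 and 0.107 to 0.216 for SSC1. The count was 0 without any one of the S. cerevisiae or hybrid Ribo-seq libraries, the S. cerevisiae RNA-seq libraries or S. paradoxus Ribo-seq replicate 2, it was 1 without either S. paradoxus RNA-seq library, and it was 7 without either hybrid RNA-seq library. With the hybrid library as a block it was 7, with 6 higher and SSA3 lower. DESeq2 called 6 members and 377 genes in all. The genes called over the whole table also varied widely between these alternative fits. Their member counts are therefore not to be set against the 3.47% of the main fit.

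SSA3 stood apart from the family in translation. It had 600 and 533 RNA-seq counts but 5 and 8 Ribo-seq counts in the S. cerevisiae parent, and 226 and 236 against 10 and 13 in S. paradoxus. In the hybrid its alleles held 280 to 426 RNA-seq counts and 5 to 12 Ribo-seq counts. The ratio of Ribo-seq to RNA-seq level in S. cerevisiae was −5.79 on the log2 scale (SE 0.42), the 20th lowest of 5158 genes, and in S. paradoxus it was −3.91 (SE 0.39), the 54th lowest. The parental difference in efficiency was −1.88 (SE 0.63), which did not pass the test (edgeR adjusted p = 0.128), and at counts this low it was poorly measured. SSA4 was also below the median gene in each group, with ratios of −1.31 in S. cerevisiae, −1.90 in S. paradoxus, −1.72 for its S. cerevisiae allele and −2.50 for its S. paradoxus allele.

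At the other end, 4 members stood near the top of the whole table. In S. cerevisiae the ratio of Ribo-seq to RNA-seq level was 3.32 for SSA2, 3.16 for SSA1, 3.02 for SSC1 and 2.60 for SSE1, which ranked 14th, 19th, 23rd and 38th from the highest. In S. paradoxus these genes had 2.19, 2.43, 2.04 and 1.76, and ranked 14th, 9th, 22nd and 46th. Their rank was thus similar in both species although the ratios themselves were lower in S. paradoxus. SSB1, SSB2 and SSZ1 were more moderate, at 1.32, 1.41 and 1.499 in S. cerevisiae and 0.82, 0.69 and 0.74 in S. paradoxus. SSE2 was close to the median gene in S. paradoxus at 0.19 (SE 0.20) and at 0.77 (SE 0.19) in S. cerevisiae. These ratios compare 2 library types, so they rank genes within a strain and are not absolute rates.

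**Figure D2:**
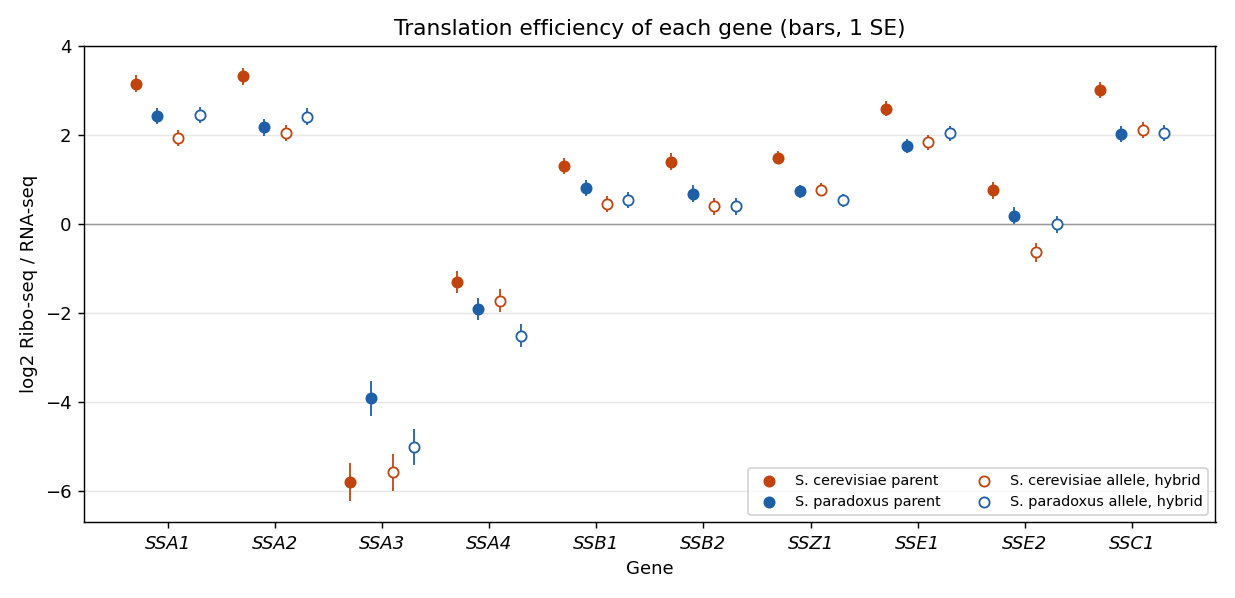
Ratio of Ribo-seq to RNA-seq level for each gene in the 2 parents and for the 2 alleles in the hybrid, on the log2 scale, with bars of 1 SE. SSA3 is lowest in all 4 groups, from −5.79 to −3.91, and SSA1, SSA2, SSC1 and SSE1 are high in all 4.

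Within the hybrid, where both alleles share one cell, 2 members differed in mRNA between alleles and the others did not pass the test. Of these, 1 was higher and 1 lower from the S. cerevisiae allele, against 5.76% higher and 7.19% lower over all genes (13.0% called). This fit did not pair the 2 alleles of a library. With the hybrid library as a block, 3 members and 1550 genes were called, beside 668 genes without it. SSA1 gave 1140 and 1011 CPM from the S. cerevisiae allele and 453 and 582 CPM from the S. paradoxus allele, a ratio of 1.06 (SE 0.17, edgeR adjusted p = 0.00144). The S. cerevisiae allele supplied 71.2% and 62.7% of its allele counts. In both libraries the S. cerevisiae allele was the higher one. With SSA2 added to it, the allelic ratio of the pair was 0.26. SSA2 held 61.0% to 82.6% of the pair's counts in these columns, so the sum mostly reflects SSA2 and cannot decide on SSA1. SSA2 itself had an allelic ratio of −0.06 (SE 0.18), against −1.61 between the parents. SSB1 and SSB2, at −0.00 and 0.04, SSE1 at 0.27 and SSC1 at −0.12 also had small allelic ratios.

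SSE2 went the other way in the hybrid than in the parents. Its S. cerevisiae allele gave 17.98 and 19.1 CPM and its S. paradoxus allele 43.4 and 69.3 CPM, a log2 ratio of −1.60 (SE 0.20, edgeR adjusted p = 0.00026). The S. cerevisiae allele supplied 28.9% and 21.1% of the SSE2 RNA-seq counts. In occupancy the alleles gave 11.96 and 12.05 CPM against 53.1 and 59.3 CPM, a ratio of −2.23 (SE 0.21, edgeR adjusted p = 2.03e-05), a 4.68-fold difference. Neither pair of alleles overlapped, but how many of all genes were separated this way was not counted. SSE2 was the 1 member called in allelic occupancy, where 4.65% of all genes were lower, 4.09% higher and 8.74% called. With the hybrid library as a block, SSA1 occupancy was also called (0.55, edgeR adjusted p = 0.0212, against 0.0624 without it), and so was a lower SSA4 mRNA (−0.76, edgeR adjusted p = 0.0103, against 0.0568). In allelic translation efficiency 0 members passed edgeR's test or DESeq2's, and edgeR called 1.38% of all genes, 0.659% higher and 0.717% lower. At an unadjusted edgeR p under 0.05, 1 member and 497 of the 5158 genes passed.

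The parental and allelic ratios were compared directly as an interaction. Of the 10 genes, 6 differed in mRNA, 1 with a parental ratio above its allelic ratio and 5 below, against 6.90% and 5.51% of all genes (12.4% called). The 5 with a parental ratio below the allelic one were SSA2, at −1.55 (SE 0.26, edgeR adjusted p = 0.00283), SSB2 and SSE1, both at −1.05, SSB1 at −0.95, and SSA1 at −0.86. SSA2 and SSE2 kept their call in each fit that left out 1 library. SSE1 lost it without S. cerevisiae RNA-seq replicate 2 (adjusted p = 0.0573), SSB1 and SSB2 in 6 of the 12 fits each, and SSA1 in 9. With the hybrid library as a block, SSC1 (−0.73, adjusted p = 0.0227) and SSZ1 (−0.55, adjusted p = 0.0277) also passed. The count of members fell to 2 without S. cerevisiae RNA-seq replicate 2 and to 3 without its replicate 1, S. paradoxus RNA-seq replicate 2 or either hybrid Ribo-seq library. The S. cerevisiae parent was the lowest of the 4 groups for SSA2, SSB1, SSB2, SSZ1, SSE1 and SSC1 mRNA. The comparisons of parental mRNA, parental efficiency, parental minus allelic mRNA and hybrid against S. cerevisiae mRNA share that parent's 2 RNA-seq libraries. Their results are therefore not independent of each other.

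For SSE2 the difference was the reverse in sign and the largest of the members. The parental minus allelic ratio was 2.44 in mRNA (SE 0.28, edgeR adjusted p = 0.000263) and 3.65 in occupancy (SE 0.29, edgeR adjusted p = 1.01e-05). SSE2 was the 1 member called in occupancy, where 6.98% of all genes were called, 4.59% higher and 2.38% lower. Apart from the sum with SSE1, which is dominated by SSE1, the sign and call of SSE2 held in every alternative run for the parental, the allelic and the interaction ratio, in mRNA and in occupancy. In translation efficiency, 0 genes of the 5158 passed the interaction test with edgeR (0.00% called), and DESeq2 called 2 members and 10 genes in all. At an unadjusted edgeR p under 0.05, 5 members and 241 of the 5158 genes passed.

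**Figure D3:**
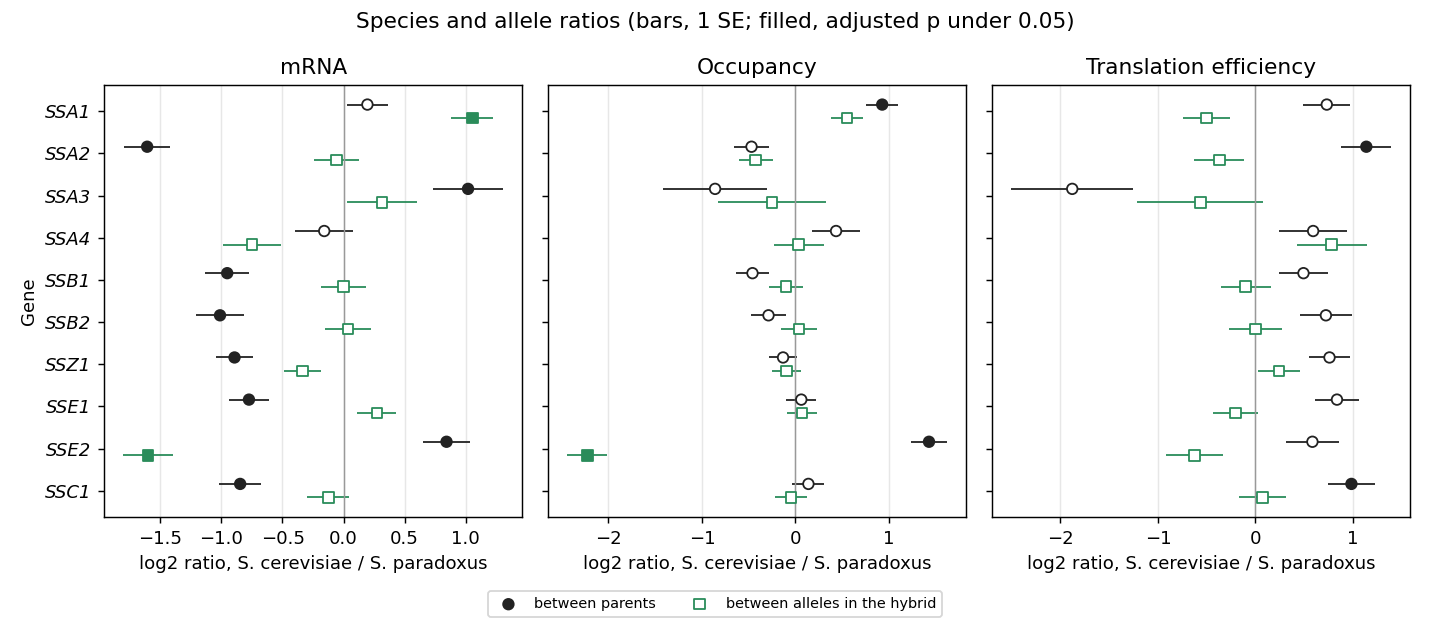
Log2 ratio of S. cerevisiae over S. paradoxus for each gene, between the parents (circles) and between the alleles in the hybrid (squares), for mRNA, occupancy and translation efficiency, with bars of 1 SE and filled symbols where the adjusted p was under 0.05. SSE2 lies on opposite sides of 0 in the mRNA and occupancy panels, at 0.84 and −1.60 for mRNA.

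The balance within each paralog pair showed the same data from another side. The SSA2 share of summed SSA1 and SSA2 footprints was 58.9% and 59.2% in the S. cerevisiae parent and 79.1% and 79.3% in S. paradoxus, close to the RNA-seq shares. From the hybrid's S. cerevisiae alleles it was 65.8% and 64.9% and from the S. paradoxus alleles 78.9% and 78.7%, so the ordering of the species was kept in the hybrid. SSE1 made up 90.8% to 99.6% of the SSE1 and SSE2 sum in all columns. SSA4 held 54.1% and 60.0% of the SSA3 and SSA4 sum in RNA-seq of the S. cerevisiae parent and 74.9% and 75.2% in S. paradoxus, but 88.0% to 97.5% in all Ribo-seq columns.

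**Figure D4:**
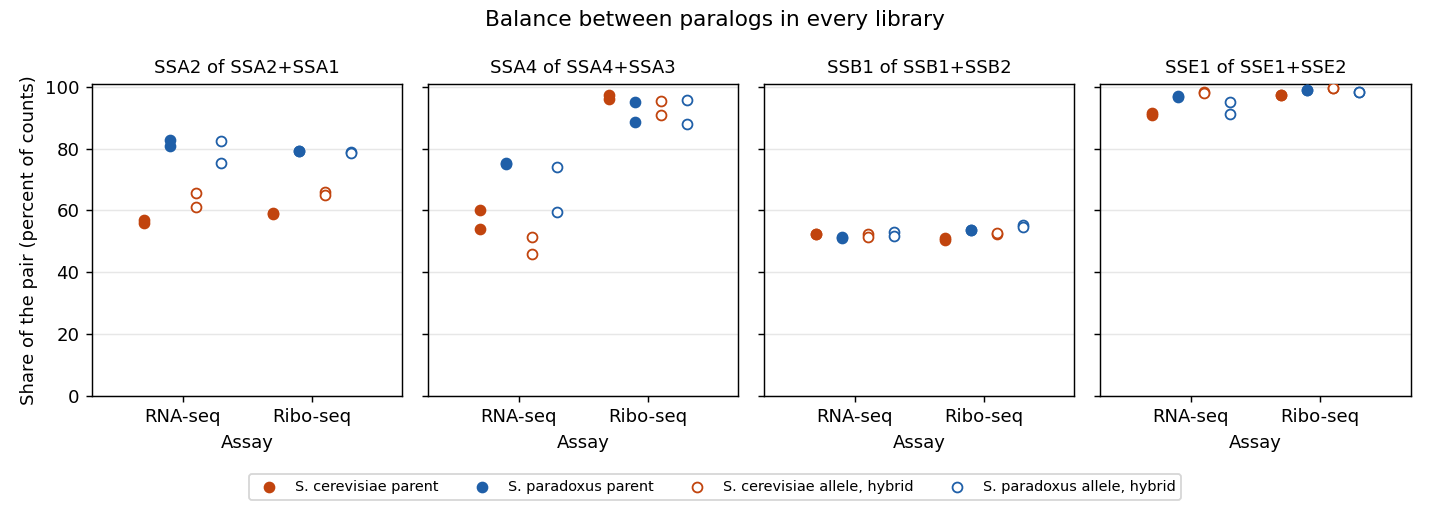
Share of the summed counts held by the named gene of each paralog pair, in percent, in every column. The SSA2 share is above 75% in all S. paradoxus columns and under 66% in all S. cerevisiae columns, while the SSB1 share stays between 50.4% and 55.1%.

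Summing the 2 alleles gave the output of the hybrid as a whole. In mRNA, 7 of the 10 genes were higher and 1 lower in the hybrid than in S. cerevisiae, against 14.2% higher and 11.2% lower over all 5159 genes tested (25.4% called), and their median log2 difference was 0.69 beside −0.007 for all genes. Without either S. cerevisiae RNA-seq library 4 were called, all higher. SSA2 rose from 647 and 695 CPM in S. cerevisiae to 2166 and 1667 CPM in the hybrid, next to 2204 and 1889 CPM in S. paradoxus. That was 1.51 on the log2 scale (SE 0.19, edgeR adjusted p = 0.000321) against S. cerevisiae and −0.09 (SE 0.18) against S. paradoxus. SSB1, SSB2, SSC1, SSZ1 and SSE1 were also higher in the hybrid than in S. cerevisiae, by 1.28, 1.30, 1.13, 0.77 and 0.54, and none was called against S. paradoxus. The call of SSE1 was lost in 5 of the 12 fits that left out 1 library, and that of SSZ1 without either S. cerevisiae RNA-seq library (adjusted p = 0.0592 and 0.0589). SSE2 was lower than in S. cerevisiae by 0.61 on the log2 scale, a call that was lost without either S. cerevisiae RNA-seq library (adjusted p = 0.0937 and 0.162).

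SSA1 was the one member called against both parents in hybrid mRNA. SSB1, SSB2 and SSC1 also lay above all 4 parental libraries in both hybrid libraries, but were not called against S. paradoxus. For SSC1 the margin was 934.9 CPM in the hybrid against 931.3 CPM in S. paradoxus. How many of all genes lay this way was not counted, so it is not read as a trait of the family. SSA1 was 794 and 787 CPM in the hybrid, 489 and 551 CPM in S. cerevisiae and 463 and 446 CPM in S. paradoxus, with no overlap. The difference was 0.61 against S. cerevisiae (SE 0.17, edgeR adjusted p = 0.0202) and 0.80 against S. paradoxus (SE 0.17, edgeR adjusted p = 0.00709). With SSA1 and SSA2 summed, the difference was 1.19 against S. cerevisiae and 0.11 (SE 0.17) against S. paradoxus. The excess over S. paradoxus was not seen in this sum, which is weighted to the more abundant SSA2. The first SSA1 call was lost when either S. cerevisiae RNA-seq library was left out (adjusted p = 0.173 and 0.0862). Against S. paradoxus, 2 of the 10 genes were higher and 0 lower in the hybrid, the other being SSA3 (0.85, adjusted p = 0.0321), where 14.8% of all genes were higher, 10.9% lower and 25.7% called. At an unadjusted edgeR p under 0.05, 2 members and 2067 of the 5159 genes passed. The call of SSA3 was lost in 5 of the 12 fits that left out 1 library.

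In hybrid occupancy, 2 of the 10 genes were lower than in S. cerevisiae and 0 higher, where 6.98% of all genes were lower, 5.74% higher and 12.7% called. They were SSE2, at −1.495 on the log2 scale (SE 0.18, edgeR adjusted p = 0.000283), and SSA4, at −0.90 (SE 0.23, edgeR adjusted p = 0.0221). SSA4 lost its call without S. cerevisiae Ribo-seq replicate 2 (adjusted p = 0.218) or without either hybrid Ribo-seq library (0.195 and 0.0538). Against S. paradoxus 0 members passed edgeR's test, where 7.62% of all genes were called, 4.73% higher and 2.89% lower. DESeq2 called 1 member and 558 genes in all. At an unadjusted edgeR p under 0.05, 1 member and 1201 of the 5159 genes passed. SSE2 was therefore called lower than in the S. cerevisiae parent in both assays.

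**Figure D5:**
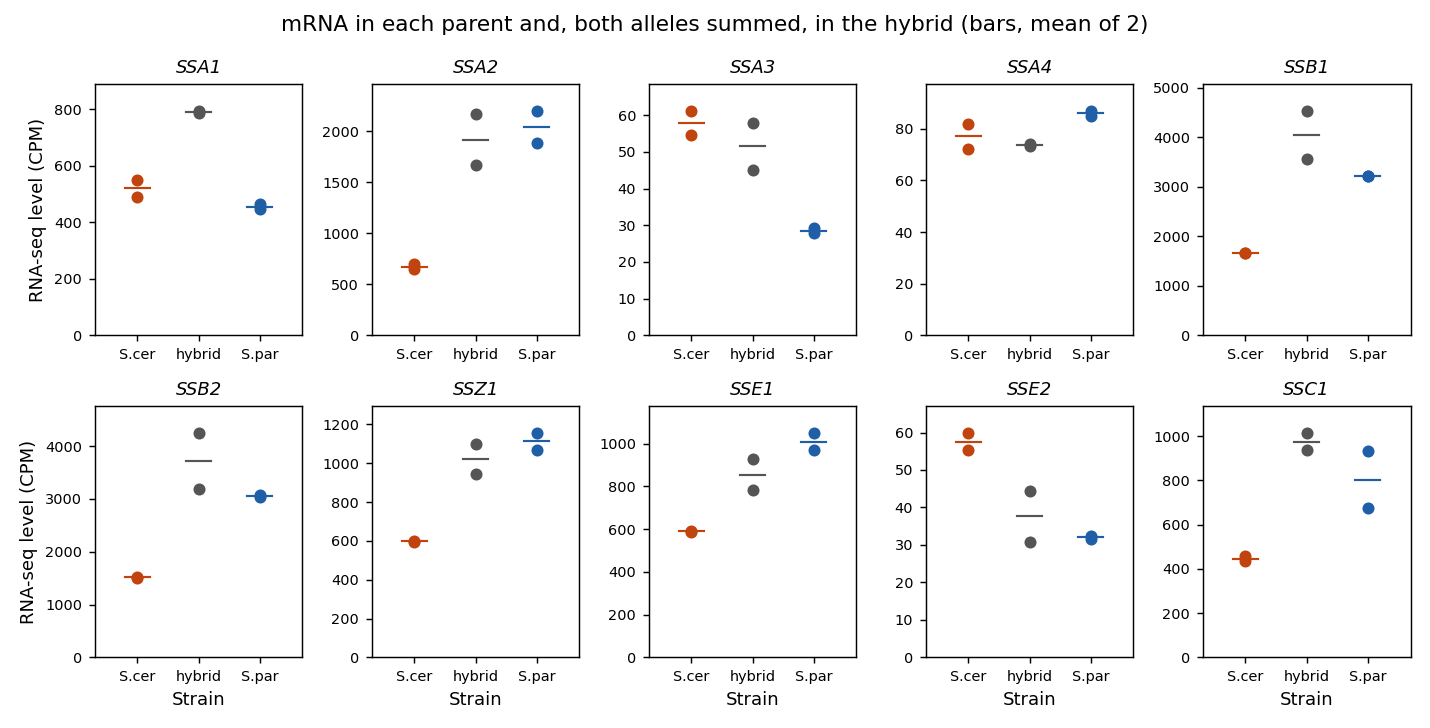
RNA-seq level of each gene in S. cerevisiae, the hybrid with its alleles summed, and S. paradoxus, in CPM on an axis of its own for each gene, with single libraries as points. SSA1 is highest in the hybrid, at 794 and 787 CPM, and SSA2, SSB1 and SSB2 lie near or above S. paradoxus.

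The partners of each Hsp70 were counted for context, to be read against the 43.5% of all genes called in parental mRNA, 21.9% higher and 21.6% lower. Among 13 cytosolic partners of Ssa, 1 was higher and 2 lower in parental mRNA: the disaggregase HSP104 at 0.71, and the Hsp90 co-chaperones CNS1 at −1.27 and STI1 at −0.78. That count lies below the share over all genes. The main J proteins YDJ1 and SIS1 had ratios of −0.33 (SE 0.31) and −0.03 (SE 0.22) and were not called. Of 5 ribosome-bound partners of Ssb, 3 were lower (21.6% of all genes), ZUO1 at −0.62 and the nascent polypeptide-associated complex genes EGD1 at −0.66 and EGD2 at −0.59, and 1 was higher, the EGD1 paralog BTT1 at 1.15. Both parts of the ribosome-associated complex, SSZ1 and ZUO1, were thus called lower in S. cerevisiae.

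Of 10 genes of the mitochondrial system, beside the same 43.5% called, 21.9% higher and 21.6% lower over all genes, 2 were lower, the J proteins MDJ1 at −0.83 and JAC1 at −0.54, and 1 was higher, the SSC1 paralog ECM10 at 0.96. ECM10 was also the one partner called in parental translation efficiency, at −2.76 (SE 0.48, edgeR adjusted p = 0.00741). Its mean Ribo-seq level was only 2.90 CPM in the S. cerevisiae parent and 9.96 CPM in the S. paradoxus parent, so this ratio rested on low levels. In the endoplasmic reticulum, 4 of 6 genes in the table were lower and 0 higher (21.6% and 21.9% over all genes). They were the Hsp70 KAR2 at −1.27, its exchange factor LHS1 at −0.81, and the J proteins JEM1 at −0.90 and SEC63 at −0.45. At an unadjusted edgeR p under 0.05, 5 of the 6 passed, beside 2673 of the 5158 genes. The uncalled ERJ5 and SIL1 had higher mean RNA-seq levels in S. cerevisiae, at 59.5 against 35.2 CPM and 67.4 against 58.0 CPM. The extra gene at the unadjusted threshold thus went the other way from the 4 called. KAR2 also had an interaction of −1.19 in mRNA (edgeR adjusted p = 0.00437) and a hybrid level above S. cerevisiae by 0.95. It was the 1 gene of these 6 called in that interaction, where 12.4% of all genes were called. In hybrid mRNA, ERJ5 was called lower than in S. cerevisiae, and LHS1 and JEM1 lower than in S. paradoxus. From the cytosolic, ribosome-bound and mitochondrial partner lists, 0 genes were called in the mRNA interaction. Of the 4 regulators, HSF1, MSN2, MSN4 and SFL1, 0 passed edgeR's test or DESeq2's in parental mRNA. At an unadjusted edgeR p under 0.05, 0 of them passed, beside the same 2673 genes. HSF1, the heat shock transcription factor, was at 0.10 (SE 0.17) between the parents and was lower in hybrid mRNA by 0.56 on the log2 scale against S. cerevisiae (edgeR adjusted p = 0.0186) and by 0.46 against S. paradoxus (0.0425).

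As a description of pattern, each member was correlated with all other genes on log2 levels over the 16 columns after the mean of each assay was removed. Columns of a hybrid library share that library, so these values carry no test. SSB1 and SSB2 were closest to each other, at 0.987, and among non-members SSB1 was closest to MIR1 (0.980), the mitochondrial phosphate carrier, and SSB2 to YEF3 (0.978), a translation elongation factor. SSC1 was closest to HSP60 (0.931), its mitochondrial chaperonin partner, and SSA4 to HSP26 (0.825), a small heat shock protein. SSA2 was closest to PDC1 (0.969), SSZ1 to SEC14 (0.959), SSA1 to ERG24 (0.929), SSE1 to PPT1 (0.925), SSE2 to ECM4 (0.915) and SSA3 to YLR120W-A (0.763). Between members, SSA1 and SSA2 had a correlation of −0.001, and SSA4 and SSE2 one of 0.580.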

How the data were processed

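The members, lists and tests were chosen with earlier results of these data known. The deposited values were whole-number counts of reads per gene, per the file headers, in 16 columns: 8 parental columns, headed "Mix" (meaning not given in the sources used here), and 8 allele columns of the 4 hybrid libraries. Tools listed in the submitters' processing notes were Bowtie 0.12.8, bedtools 2.17.0, CASAVA 1.8 and cutadapt 1.2.1, with the build sacCer3. Not given in the sources used here are their roles, the S. paradoxus assembly and whether counting used strand. Totals of same-numbered species columns lay within 0.18% of each other. No source used here names the step that made them nearly equal. Whether columns were down-sampled, or the parental columns separated from one mixed library, cannot be told apart, so depth may not be that of the sequenced library and the species columns may not be independent.

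Counts were tested with edgeR 4.0.16 in R 4.3.3 (quasi-likelihood test, TMM, filterByExpr at a minimum count of 10, Benjamini-Hochberg over all genes, threshold 0.05), with 8 group means over 16 columns (5158 genes), or 6 over 12 libraries for hybrid totals (5159). The script was tested on simulated data. DESeq2 1.42.0 was an alternative. Hybrid columns of 1 library are paired by construction (deviation correlations 0.830 in RNA-seq and 0.456 in Ribo-seq). All members were named, and partners where called in parental mRNA or translation efficiency, together with a few regulators and J proteins, named for their roles after their values were seen. Coordinates are from the deposited gene tables and R64. Sequences and promoters were not used here.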

Additional observations from a re-analysis of the deposited data

Results flagged for a closer look

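The species ratio between the parents and the allele ratio in the hybrid differed by a test of the difference itself for 6 genes in mRNA and 1 in occupancy. In mRNA the parental minus allelic log2 value was 2.44 for SSE2, −1.55 for SSA2, −1.05 for SSE1, −1.05 for SSB2, −0.95 for SSB1 and −0.86 for SSA1, with edgeR adjusted p of 0.000263, 0.00283, 0.0114, 0.0257, 0.03 and 0.0347. In occupancy it was 3.65 for SSE2 (edgeR adjusted p = 1.01e-05). Only SSE2, of these, had parental and allelic ratios that were each called and of opposite sign. No group held enough libraries to look for a library that stood apart from its replicates.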

How the results depend on the processing

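Of 34 called member results, 21 kept their call in every alternative run and 0 changed sign, apart from the sums of paralog pairs. RLE size factors, no filter on low counts and an offset for coding length left all 130 results on their side of the threshold. DESeq2 called 6 members in parental translation efficiency, 4 in parental occupancy, 2 in allelic occupancy, 2 in the parental minus allelic efficiency and 1 in hybrid against S. paradoxus occupancy. Over all genes it called 377, 1879, 622, 10 and 558 in these comparisons. With only the columns of the comparison, the counts were 4 in parental translation efficiency, 5 in hybrid against S. cerevisiae mRNA, 4 in its occupancy, 1 in hybrid against S. paradoxus mRNA and 1 in its occupancy. No such fit exists for the parental minus allelic comparisons. Parental replicate numbers are not known to pair samples (deviation correlations 0.238 and 0.0818). With a replicate block for all columns, 4 members were called in allelic mRNA, 2 in allelic occupancy and 4 in parental occupancy. This block also gave 7 in parental translation efficiency and 3 in the parental minus allelic efficiency. Genes called in allelic mRNA were 1833 with this block, 200 with only the columns of the comparison and 668 in the main fit. Members called in an alternative fit are therefore to be read against the genes called in that same fit. Where those genes are not given here, the member counts are not read as a trait of the family. This also holds for the fits below that left out 1 library. A block for the hybrid libraries only, chosen after seeing the data, called 2, 4 and 7 members in allelic occupancy, parental occupancy and parental translation efficiency.

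Leaving out 1 library at a time, members called ran from 7 to 8 in parental mRNA, 2 to 4 in parental occupancy, 0 to 7 in parental translation efficiency, 2 to 3 in allelic mRNA, 1 to 2 in allelic occupancy, 2 to 6 in the parental minus allelic mRNA, 4 to 8 and 1 to 3 in hybrid against S. cerevisiae mRNA and occupancy, and 1 to 3 and 0 to 1 against S. paradoxus. With a pair summed, the sum could differ in sign from a member, and the cases given here are not all of them. A sum is weighted to its more abundant gene and does not measure the other one alone. SSE1 held 90.8% to 99.6% of the SSE1 and SSE2 sum, and SSA4 held 88.0% to 97.5% of the SSA3 and SSA4 sum in Ribo-seq. For SSA1 with SSA2, parental mRNA was −1.07 and occupancy −0.047. For SSA3 with SSA4, parental occupancy was 0.37, parental translation efficiency 0.13 and hybrid against S. cerevisiae occupancy −0.84. For SSE1 with SSE2, parental mRNA was −0.68, and allelic mRNA and occupancy were 0.20 and 0.048. The parental minus allelic mRNA of this sum was −0.89, and its hybrid against S. cerevisiae mRNA was 0.46. Genes called in parental translation efficiency ran from 56 to 1054 over the alternatives. With 2 libraries per group, small differences could not be detected, and SSA3 occupancy rested on 5 to 13 counts.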
